A study of Mus musculus with 16 samples.

Results

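Trp53 and 9 genes that the p53 protein switches on directly were followed in mouse embryonic stem cells (ESCs) that had lost Dnmt1, the enzyme that copies DNA methylation onto new DNA, alone or together with Dicer, the enzyme that cuts small RNAs. The 10 genes were chosen by symbol, for their known roles in apoptosis and the stress response, from the 26127 genes of the deposited table. They are Trp53, Mdm2, Ccng1, Zmat3, Bax, Bbc3, Pmaip1, Perp, Sesn2 and Phlda3, each with 1 row, and all 10 passed the filter on low values that left 12892 genes for testing. Expression was read from 16 total RNA libraries freed of ribosomal RNA, all labelled ESC of background strain E14. The genotype labels were Wildtype (WT, n = 8), Dnmt1-/- (Dnmt1 KO, n = 4) and Dicer/Dnmt1 -/- (Dicer/Dnmt1 KO, n = 4), with no treatment or day in the labels. Per the study's methods, the cells carried loxP sites in both copies of Dnmt1, Cre was induced with tamoxifen, Dicer was targeted with CRISPR/Cas9 in the same line and grown from single-cell colonies, and ESCs were kept in serum and LIF with or without feeder cells. The methods name C57BL/6 as the strain of that line, while the labels name E14. The methods describe both a conditional and a constitutive Dicer knockout made in that line. Which kind of Dicer knockout, which colonies and which feeder condition a library came from was not given in the sources used here.

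The p53 protein is held low by Mdm2, a ubiquitin ligase that marks it for destruction, and damage or stress lifts that control, so that p53 acts mainly through the amount and activity of the protein rather than of its RNA. Stabilised p53 binds response elements near its targets and raises their RNA, among them Mdm2 itself, which closes a feedback loop. Loss of Dnmt1 is known to set off p53-dependent death in mouse fibroblasts, whereas mouse ESCs survive without DNA methylation. Only RNA was measured here, no group carried a change of the Trp53 gene, and dependence of any gene on p53 was not measured.

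The libraries held 31.46 to 52.54 M reads, and the 10 genes rest on 260 to 11672 reads per gene and library. Levels are given as RPM, the reads of a gene scaled to the size of its library, and changes as differences of mean log2 RPM. Dnmt1 measured 169 to 203 RPM in the libraries labelled WT 1A to 3B, but 51.4 and 46.9 RPM in those labelled WT 4A and WT 4B. The 8 knockout libraries held 18.04 to 24.96 RPM of Dnmt1 RNA, a sum over the whole gene that includes exons outside any deletion. Dicer1 measured 12.8 to 16.6 RPM in Dicer/Dnmt1 KO, between 39.0 and 51.2 in Dnmt1 KO and between 35.6 and 51.4 in WT 1A to 3B, with 27.5 and 23.6 in WT 4A and WT 4B. The latter pair thus went against its label in part, and 9.82% and 10.3% of its gene reads came from ribosomal protein genes, beside 4.98% to 8.11% in the other 14 libraries. Changes of the 10 genes against WT, and the numbers called in each list, are therefore given with all 8 WT libraries. Values without this pair are added where stated. Changes of single genes outside the 10, counts of markers, medians and counts of overlap use all 8. The 8 ESC markers, Pou5f1 and Nanog among them, were present in every group, with a median summed level of 2536 RPM in WT, 2038 in Dnmt1 KO and 2066 in the double knockout, and 2 of the 8 were called lower than WT in each knockout and none higher. The 14 feeder fibroblast markers summed to 59.3 to 99.9 RPM in WT, with 139 to 156 RPM for Dnmt1 KO and 125 to 208 RPM for Dicer/Dnmt1 KO, without overlap between WT and the knockouts. Of the 12 tested, 7 were higher than WT in Dnmt1 KO, 10 were so in the double knockout, and 0 were lower in either. Of all tested genes 23.5% and 31.9% were called higher in these comparisons. None of the 14 was at 0 in all libraries of a group, and Dcn and Lum, which were not tested, stayed under 1 RPM. The 5 primitive endoderm markers summed to between 4.25 and 9.83 RPM in WT, 17.6 and 25.5 in Dnmt1 KO, and 8.42 and 10.98 in Dicer/Dnmt1 KO, with 5 higher in Dnmt1 KO than in WT and 3 in Dicer/Dnmt1 KO. The part of such cells in the results below was not tested, and in bulk RNA fewer cells of a type and less RNA per cell cannot be told apart.

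Sequences near the gene start that p53 could recognise are shown here for 4 of the genes. A p53 response element is a pair of decamers, and the consensus p53 site was searched on both strands within 2500 bases of the gene start, allowing a spacer of 0 to 2 bases and at most 1 mismatch. This search was added after the expression values had been seen. Of the 9 genes searched (Pmaip1 was left out), 4 held such a site, beside 5.88% of the 12890 windows of tested genes. Trp53, Bbc3, Perp, Sesn2 and Phlda3 held none in this window, and sites farther away or with more mismatches were not searched. The genome was NCBIM37, the build of the deposited coordinates, and the sites are written 5′ to 3′ on the strand of the gene, with the decamers in capitals and a spacer base in lower case. Positions count bases from the gene start, with negative ones before it.
Zmat3, intron, chr3:32263253-32263272, minus strand, centre at position 1337: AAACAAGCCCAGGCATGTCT
Bax, upstream, chr7:52722460-52722480, minus strand, centre at position -202: AAGCATATCCcAGGCAAGCTT
Mdm2, upstream, chr10:117148726-117148745, minus strand, centre at position -922: GGGCAATTCCGGGCAAGTCC
Ccng1, intron, chr11:40568438-40568457, minus strand, centre at position 365: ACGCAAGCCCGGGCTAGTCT
Ccng1, upstream, chr11:40568964-40568983, minus strand, centre at position -161: AGACCTGCCCGGGCAAGCCT

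The Zmat3 site had no mismatch to the consensus, which held for 0.357% of all windows, and the other 4 sites had 1 mismatch each. A match describes letters and not binding, and p53 binding was not measured. Promoter windows of 300 bases (250 before to 50 after each start, RefSeq, GRCm38.p6) were at hand for 7 of the 10 genes, in 9 windows. Their ratio of observed to expected CpG ran from 0.494 in Trp53 to 1.12 in Mdm2, and all 9 windows lay above the median of 0.384 over 32851 windows. No methylation value was analysed here for these promoters.

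Per kilobase of the longest annotated transcript, the genes spanned a wide range of RNA levels in WT. Bax was highest with 63.6 ± 8.4 RPM per kb (SD, n = 8), followed by Ccng1 with 60.2 ± 9.0 and Mdm2 with 33.8 ± 1.5. Bax and Ccng1 differed by less than their SDs. Perp, Phlda3, Pmaip1 and Trp53 lay between 18.1 and 19.7 RPM per kb, within 1 SD of each other. The transcript used for Trp53 had 3.275 kb in 5 exons, and a shorter one would place Trp53 higher. The order thus depends on the transcript chosen, and others were not tried. Zmat3, Bbc3 and Sesn2 were lowest, with 10.4 ± 3.1, 8.42 ± 1.5 and 7.72 ± 1.6. The order changed at the bottom in Dicer/Dnmt1 KO (n = 4), where Sesn2 reached 14.1 ± 1.7 and Bbc3 was lowest with 5.22 ± 0.59, and at the top, where Ccng1 reached 84.6 ± 2.2 beside 62.3 ± 1.9 for Bax.

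Dnmt1 KO set beside WT shows which of these RNAs differ between libraries of these labels, and methylation was not analysed with them. In Dnmt1 KO 6 of the 10 genes rose (Trp53, Mdm2, Zmat3, Bax, Perp and Sesn2) and 1 fell (Bbc3), beside 41.0% of all tested genes called, 23.5% upward and 17.5% downward (limma, Benjamini-Hochberg (BH) adjusted p under 0.05 over 12892 genes). The median change of the 10 was 0.30 on the log2 scale, beside 0.04 for all tested genes. Every library of Dnmt1 KO lay above every WT library for 2 genes, Mdm2 and Perp, and none lay wholly below, beside 23.2% of all genes without overlap and 14.8% wholly above. Without WT 4A and WT 4B 7 rose and 1 fell, beside 44.9% called: Ccng1 and Pmaip1 were added, and Zmat3 was lost. With the A and B libraries of each number averaged, Mdm2 and Perp alone passed, beside 17.7% of all genes.

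In Dicer/Dnmt1 KO the calls among the 10 genes went in both directions, as did those among all tested genes. Against WT, 4 rose (Trp53, Ccng1, Perp and Sesn2) and 3 fell (Bbc3, Pmaip1 and Phlda3), beside 61.9% of all tested genes called, 31.9% upward and 30.1% downward. The count was the same without WT 4A and WT 4B, beside 61.2% called. The groups did not overlap for 5 of the 10 genes, Ccng1 and Sesn2 above WT and Bbc3, Pmaip1 and Phlda3 below, beside 41.4% of all genes, 22.6% above and 18.9% below. The median change of the 10 was 0.17, beside 0.02 for all tested genes.

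Set against Dnmt1 KO, the double knockout differs in its label by Dicer, and the parts of Dicer and of colony cannot be told apart. Here 4 genes fell (Mdm2, Pmaip1, Perp and Phlda3) and 1 rose (Ccng1), beside 36.3% of all tested genes called, 19.4% downward and 16.9% upward. Without WT 4A and WT 4B in the fit 5 fell and 2 rose, beside 44.8% of all tested genes called. With the A and B libraries averaged Pmaip1 and Phlda3 passed, and Mdm2, Perp and Ccng1 did not, beside 9.5% of all genes called. All 4 libraries of one knockout lay apart from those of the other for 7 genes, 5 lower and 2 higher in Dicer/Dnmt1 KO, beside 43.2% of all genes, 22.3% lower and 20.8% higher. The median change of the 10 was -0.28, beside -0.01 for all tested genes. The comparisons of the 2 knockouts with WT share the WT libraries, and this one shares the knockouts with them.

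**Figure D1:**
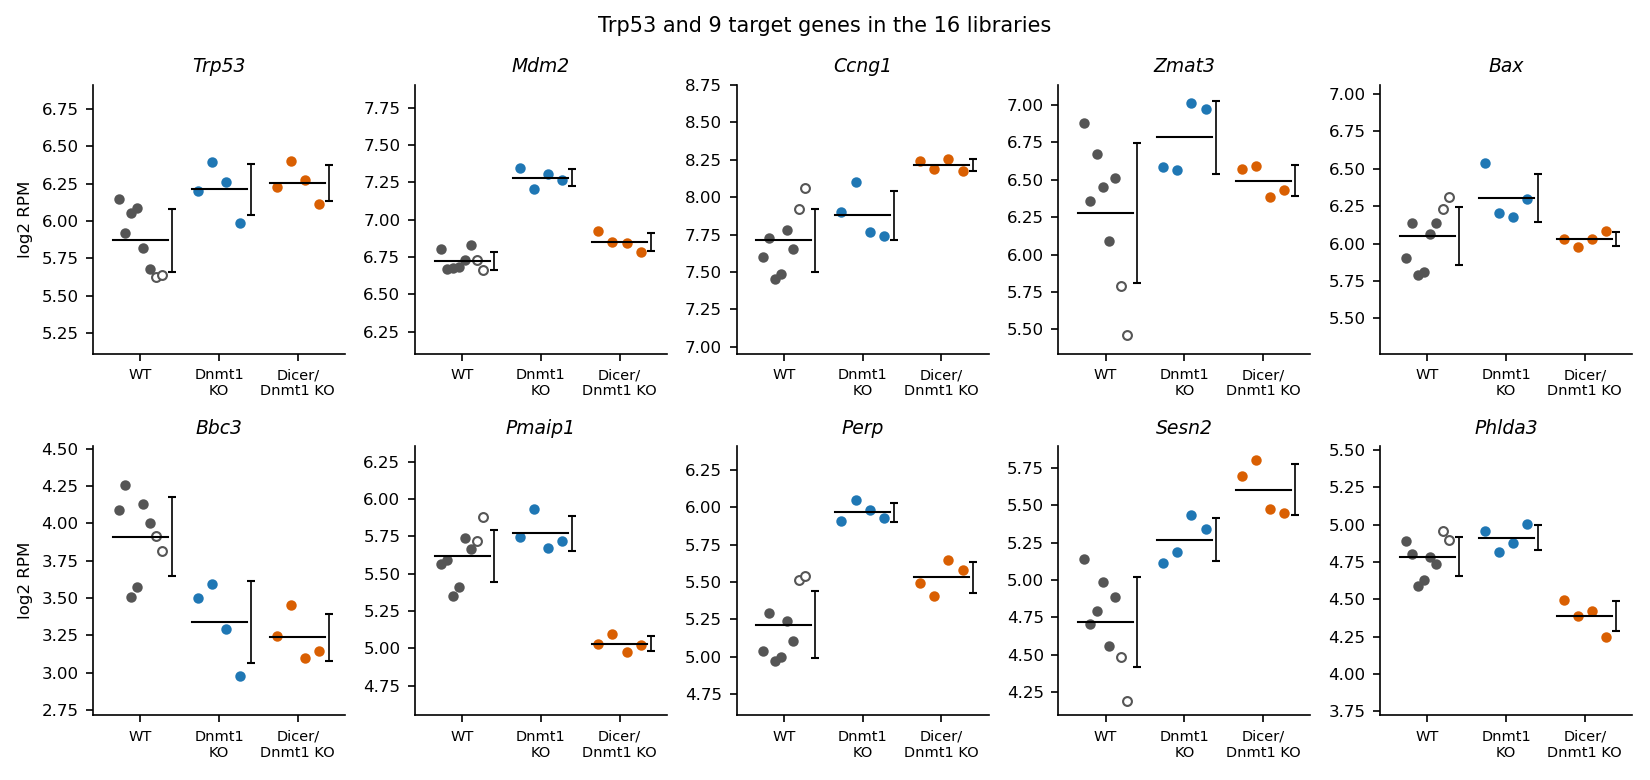
Log2 RPM of Trp53 and 9 target genes in each of the 16 libraries (8 WT, 4 Dnmt1 KO, 4 Dicer/Dnmt1 KO), with the group mean as a line and 1 SD as a bar beside it. Open circles are WT 4A and WT 4B. Every panel spans the same number of log2 units, so that Mdm2 and Perp stand clear of WT in Dnmt1 KO, and Pmaip1 and Phlda3 lie below both other groups in Dicer/Dnmt1 KO.

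Trp53 (ENSMUSG00000059552, chromosome 11, 69393861 to 69405375, plus strand), which encodes the transcription factor p53, measured 49.4 RPM in the lowest WT library, 58.6 at the median and 70.8 in the highest. It measured 73.7, 84.0, 76.5 and 63.5 RPM in Dnmt1 KO 1A, 1B, 2A and 2B, and 75.02, 84.3, 77.3 and 69.2 RPM in Dicer/Dnmt1 KO 1A, 1B, 2A and 2B. Dnmt1 KO 2B and Dicer/Dnmt1 KO 2B overlapped with the upper WT libraries, and the other 6 knockout libraries lay above all of them. Trp53 rose by 0.34 in Dnmt1 KO (SE 0.11, limma BH adjusted p = 0.0169) and by 0.38 in Dicer/Dnmt1 KO (SE 0.11, adjusted p = 0.00505), or by 0.26 and 0.30 without WT 4A and WT 4B, where both passed too. The rise in Dnmt1 KO did not pass without Dnmt1 KO 1B (0.28, adjusted p = 0.0704) or 2A (0.32, adjusted p = 0.0522). Between the knockouts Trp53 differed by 0.04, with a 95% interval from -0.22 to 0.30. The size against WT hung on the WT libraries, since WT 3A to 4B lay below WT 1A to 2B without overlap, by 0.36. Against WT numbers 1 and 2 alone, the changes of Trp53 were 0.16 and 0.20, which did not pass (limma BH adjusted p = 0.159 and 0.0651), and against numbers 3 and 4 alone 0.52 and 0.56.

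Mdm2 (ENSMUSG00000020184, chromosome 10, 117125944 to 117147814, minus strand), the ubiquitin ligase that restrains p53 and is a target of it, was the steadiest of the 10 genes in WT, with 101 RPM at the lowest, 105 at the median and 114 at the highest. Dnmt1 KO held 163, 148, 158 and 154 RPM, and Dicer/Dnmt1 KO 122, 116, 115 and 110 RPM. All 4 Dnmt1 KO libraries lay above all other 12, while Dicer/Dnmt1 KO overlapped with WT. Mdm2 rose by 0.56 in Dnmt1 KO (a ratio of 1.47, SE 0.06, limma BH adjusted p = 6.99e-07), and by 0.55 without WT 4A and WT 4B. In Dicer/Dnmt1 KO its difference from WT was 0.13 (SE 0.06, adjusted p = 0.0607), with a 95% interval from 0.01 to 0.25, and it lay below Dnmt1 KO by -0.43 (SE 0.07, adjusted p = 8.91e-05). The rise in Dnmt1 KO passed under 33 alternatives, between 0.51 and 0.59, but lay under a minimum change of 1.5-fold. The fall of Mdm2 between the knockouts did not pass with A and B averaged (adjusted p = 0.0509), with letter A only (0.0623) or with letter B only (0.0959). Between the knockouts Mdm2 thus fell while Trp53 differed by 0.04, and the difference between these changes was not tested.

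Ccng1 (ENSMUSG00000020326, chromosome 11, 40562054 to 40568813, minus strand) encodes cyclin G1, which recruits a phosphatase to Mdm2 and feeds back on p53. It measured 175, 207 and 268 RPM at the lowest, median and highest in WT, then 239, 275, 218 and 214 RPM in Dnmt1 KO and 303, 292, 305 and 289 RPM in Dicer/Dnmt1 KO. Every Dicer/Dnmt1 KO library exceeded the other 12, and the highest WT value was that of WT 4B. In Dicer/Dnmt1 KO Ccng1 rose by 0.50 from WT (SE 0.10, limma BH adjusted p = 0.000431), by 0.60 without WT 4A and WT 4B, and by 0.34 from Dnmt1 KO (SE 0.12, adjusted p = 0.0349). The latter lost the threshold when Dnmt1 KO 1A, 2A or 2B, or any 1 of the 4 Dicer/Dnmt1 KO libraries, was left out, with Ccng1 changes of 0.29 to 0.35. In Dnmt1 KO the difference of Ccng1 from WT was 0.17 (adjusted p = 0.204), and 0.26 without WT 4A and WT 4B (adjusted p = 0.0138).

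Sesn2 (ENSMUSG00000028893, chromosome 4, 132047947 to 132066416, minus strand) encodes a sestrin, which holds back the growth kinase mTORC1 when amino acids are short. The 8 WT libraries held 18.3 RPM at the lowest, 26.9 at the median and 35.3 at the highest, Dnmt1 KO 34.7, 36.5, 43.2 and 40.5 RPM, and Dicer/Dnmt1 KO 51.8, 55.7, 44.5 and 43.6 RPM. The groups stood in steps, with Dnmt1 KO 1A alone inside the range of WT and all Dicer/Dnmt1 KO libraries above the other 12. Sesn2 rose by 0.55 in Dnmt1 KO (SE 0.14, limma BH adjusted p = 0.00384) and by 0.89 in Dicer/Dnmt1 KO (a ratio of 1.85, SE 0.14, adjusted p = 3.21e-05), the largest rise among the 10 genes in that comparison. Without WT 4A and WT 4B these were 0.42 and 0.76, and the rise of Sesn2 in Dicer/Dnmt1 KO passed under all 33 alternatives, between 0.70 and 1.07. The step between the knockouts was 0.33 (adjusted p = 0.11), with a 95% interval whose lower bound lay at 0, and it passed in 8 of 35 alternatives, among them the fit of only these groups (adjusted p = 0.0122). The predicted gene Gm12981 overlaps Sesn2 on the same strand, so that reads of the pair could be shared.

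Zmat3 (ENSMUSG00000027663, chromosome 3, 32233718 to 32264600, minus strand), a zinc finger protein that binds RNA, varied most within WT: 44.1 RPM at the lowest, 84.8 at the median and 118 at the highest. Dnmt1 KO held 96.0, 94.6, 129 and 126 RPM and Dicer/Dnmt1 KO 95.1, 96.4, 83.7 and 86.2 RPM, all within or just above the range of WT. The lowest WT values were those of WT 4A and WT 4B. The change in Dnmt1 KO was 0.51 (SE 0.20, limma BH adjusted p = 0.0477), and without that pair 0.29 (adjusted p = 0.0687), which did not pass. The call was lost in 11 of the 16 fits that left out 1 library, and the change was 0.19 against WT numbers 1 and 2 and 0.82 against numbers 3 and 4. In Dicer/Dnmt1 KO the difference of Zmat3 from WT was 0.0007 without WT 4A and WT 4B (limma BH adjusted p = 0.997). With all WT libraries it was 0.22 (adjusted p = 0.347), with a 95% interval from -0.20 to 0.63. Zmat3 has the longest transcript of the 10 (7.791 kb), and the 1156 tested genes of like length, within a factor of 1.25, had a median of 0.39 in that comparison.

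Phlda3 (ENSMUSG00000041801, chromosome 1, 137662696 to 137665713, plus strand) encodes a small lipid-binding protein that competes with the survival kinase Akt at the membrane. It measured 24.1, 27.7 and 31.1 RPM at the lowest, median and highest in WT, 31.1, 28.1, 29.3 and 32.04 RPM in Dnmt1 KO, and 22.5, 20.9, 21.4 and 19.0 RPM in Dicer/Dnmt1 KO. The double knockout lay below all other libraries, and the other groups overlapped. In Dicer/Dnmt1 KO Phlda3 fell by 0.40 from WT (SE 0.08, limma BH adjusted p = 0.000292) and by 0.53 from Dnmt1 KO (SE 0.09, adjusted p = 0.000247). Without WT 4A and WT 4B the fall of Phlda3 against WT was -0.35. Short transcripts as a whole were lower in the double knockout: the 1561 tested genes within a factor of 1.25 of Phlda3's length had medians of -0.22 and -0.21 in these comparisons. With the trend with length removed from each library, the changes of Phlda3 were -0.17 (adjusted p = 0.0687) and -0.32 (adjusted p = 0.00901).

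The genes of cell death moved in different directions. Bax (ENSMUSG00000003873, chromosome 7, 52717065 to 52722268, minus strand), which forms pores in the outer mitochondrial membrane, measured 55.4, 68.5 and 79.5 RPM at the lowest, median and highest in WT. Dnmt1 KO held 92.8, 73.8, 72.3 and 78.8 RPM and Dicer/Dnmt1 KO 65.4, 62.9, 65.3 and 67.8 RPM. Dnmt1 KO 1A alone exceeded all WT libraries, while each Dnmt1 KO library exceeded each of Dicer/Dnmt1 KO. The change of Bax in Dnmt1 KO was 0.26 (SE 0.10, limma BH adjusted p = 0.0434), or 0.33 without WT 4A and WT 4B (adjusted p = 0.00445), and it did not pass in 10 of the 16 fits that left out 1 library, with the smallest value without Dnmt1 KO 1A (0.18, adjusted p = 0.178). The difference in Dicer/Dnmt1 KO from WT was -0.02, with a 95% interval from -0.22 to 0.19. Bax has the shortest transcript of the 10 (1.049 kb), its 873 genes of like length had a median of -0.38 in that comparison, and with the length trend removed the change of Bax was 0.32 (adjusted p = 0.000175).

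Bbc3 (ENSMUSG00000002083, chromosome 7, 16894965 to 16903554, plus strand) and Pmaip1 (ENSMUSG00000024521, chromosome 18, 66618258 to 66625204, plus strand) encode Puma and Noxa, BH3-only proteins that neutralise the survival members of the Bcl2 family. Bbc3 measured 11.4, 15.6 and 19.1 RPM at the lowest, median and highest in WT, 11.3, 12.1, 9.79 and 7.88 RPM in Dnmt1 KO and 9.47, 10.98, 8.55 and 8.87 RPM in Dicer/Dnmt1 KO. It was thus lower in both knockouts, with Dnmt1 KO 1B inside the WT range and Dicer/Dnmt1 KO wholly below it. Bbc3 fell by 0.57 in Dnmt1 KO (SE 0.14, limma BH adjusted p = 0.0035) and by 0.68 in Dicer/Dnmt1 KO (SE 0.14, adjusted p = 0.000511), the only gene of the 10 below WT in Dnmt1 KO. Without WT 4A and WT 4B these were -0.59 and -0.69, and the knockouts differed by -0.11 (95% interval -0.45 to 0.24).

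Pmaip1 set the double knockout apart from both other groups. Its RNA measured 40.9, 49.5 and 58.9 RPM at the lowest, median and highest in WT, 53.8, 61.2, 51.1 and 52.6 RPM in Dnmt1 KO, and 32.7, 34.2, 31.4 and 32.5 RPM in Dicer/Dnmt1 KO. The 4 double knockout libraries lay close together and below all other 12. In that group Pmaip1 fell by 0.58 from WT (a ratio of 0.667, SE 0.09, limma BH adjusted p = 2.26e-05) and by 0.74 from Dnmt1 KO (SE 0.10, adjusted p = 3.35e-05), and both passed under every alternative tried except, against WT, a minimum change of 1.5-fold. In Dnmt1 KO the difference of Pmaip1 from WT was 0.15 (adjusted p = 0.175), and 0.21 without WT 4A and WT 4B (adjusted p = 0.0343).

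Perp (ENSMUSG00000019851, chromosome 10, 18564877 to 18576879, plus strand), a membrane protein of desmosomes that p53 uses in cell death, showed the largest rise in Dnmt1 KO. It measured 31.4, 36.1 and 46.6 RPM at the lowest, median and highest in WT, 60.0, 66.2, 63.2 and 60.9 RPM in Dnmt1 KO, and 45.1, 42.4, 50.04 and 47.97 RPM in Dicer/Dnmt1 KO. Dnmt1 KO lay above all other libraries, and the double knockout lay between, overlapping WT only through WT 4A and WT 4B. Perp rose by 0.75 in Dnmt1 KO (SE 0.10, limma BH adjusted p = 1.87e-05) and by 0.32 in Dicer/Dnmt1 KO (SE 0.10, adjusted p = 0.0125). Without the WT 4 pair these were 0.86 and 0.42, with no overlap in either. The double knockout lay below Dnmt1 KO by -0.43 (SE 0.12, adjusted p = 0.00882). With A and B averaged, neither the rise of Perp in Dicer/Dnmt1 KO (adjusted p = 0.115) nor this fall (0.139) passed, and the same held with A and B treated as correlated (0.055 and 0.0562) and with either letter alone. The rise of Perp in Dicer/Dnmt1 KO also missed the threshold after median centring (0.25, adjusted p = 0.0644). Against WT numbers 3 and 4 alone, the change of Perp in Dicer/Dnmt1 KO was 0.18 and did not pass (adjusted p = 0.104).

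**Figure D2:**
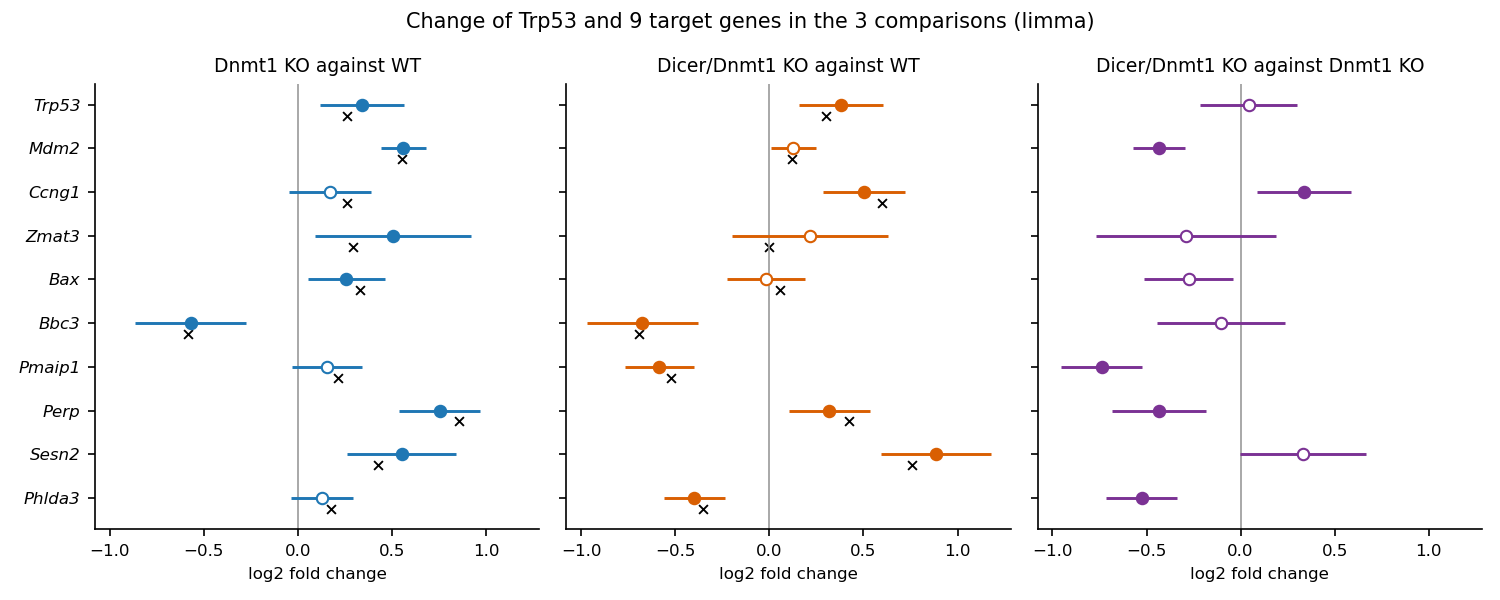
Log2 fold change of each gene by limma in the 3 comparisons, with 95% intervals. Filled points passed a BH adjusted p under 0.05, open points did not, and crosses give the change without WT 4A and WT 4B. Perp (0.75) led in Dnmt1 KO, Sesn2 (0.89) in Dicer/Dnmt1 KO, and Pmaip1 (-0.74) was the lowest between the knockouts.

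The spread within WT touched the genes unequally. Between WT numbers 3 and 4 and numbers 1 and 2 the mean log2 RPM differed by -0.63 for Zmat3, -0.38 for Sesn2 and -0.36 for Trp53, and by 0.27 to 0.29 for Ccng1, Bax, Perp and Pmaip1. Mdm2 differed by 0.03. These sets of WT libraries did not overlap for Trp53 and Pmaip1. The numbers 3 and 4 also had the larger shares of ribosomal protein reads (7.89% to 10.3%, beside 6.18% to 7.46%), and the part of this in the WT levels was not tested.

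**Figure D3:**
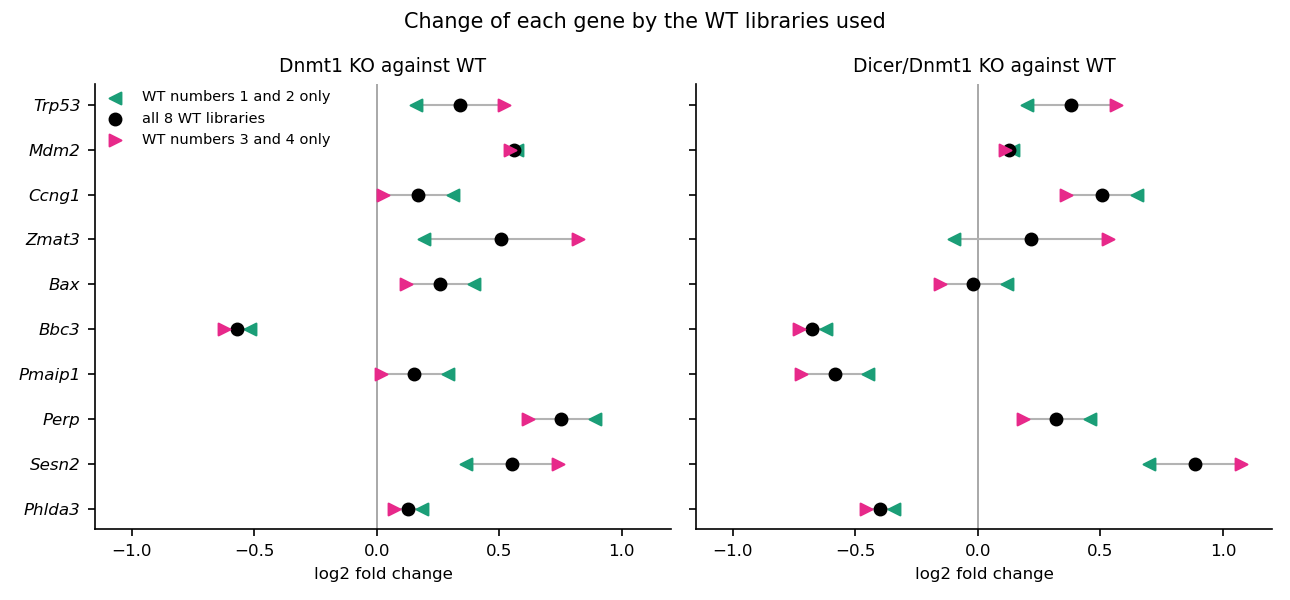
Log2 fold change of each gene against WT when WT numbers 1 and 2 only (left-pointing), all 8 WT libraries (circles) or WT numbers 3 and 4 only (right-pointing) were used. Mdm2 and Bbc3 moved little, Zmat3 ran from 0.19 to 0.82 in Dnmt1 KO, and Bax and Zmat3 changed sign in Dicer/Dnmt1 KO.

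Among the 10 genes, Pmaip1 and Phlda3 had the most alike profiles over the 16 libraries, with a mean absolute difference of 0.11 in log2 RPM once each gene was centred on its own mean, and Bbc3 and Sesn2 the least alike, with 0.67. These values are descriptions over libraries that share groups. By the same measure over the 12892 tested genes, those nearest to Trp53 were Syt9, BC030867 and Gm16515 (0.0846 to 0.0876), and those nearest to Mdm2 were Fubp3, Ehmt2 and Isyna1 (0.0466 to 0.0569). Fubp3, for one, averaged 5.80 in WT, 6.35 in Dnmt1 KO and 5.91 in the double knockout on the log2 RPM scale, the order that Mdm2 also showed.

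A wider list of 29 known p53 targets outside the 10 was set beside them, and 27 of them were tested. In Dnmt1 KO 6 rose and 4 fell, and in Dicer/Dnmt1 KO 11 rose and 11 fell. Without WT 4A and WT 4B these were 5 and 4, and 12 and 11. Between the knockouts 6 were higher and 6 lower in Dicer/Dnmt1 KO. The shares called, 10, 22 and 12 of 27, stand beside 41.0%, 61.9% and 36.3% of all tested genes. Genes of both directions were called in each comparison.

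Among 10 targets that act on cell cycle and growth, Cdkn1a, which encodes the cyclin-dependent kinase inhibitor p21, rose by 0.72 in Dnmt1 KO (SE 0.08, limma BH adjusted p = 1.57e-06), by 1.82 in Dicer/Dnmt1 KO (SE 0.08, adjusted p = 1.12e-11) and by 1.11 between the knockouts (SE 0.09, adjusted p = 1.55e-07). Plk3, a polo-like kinase of the stress response, rose by 1.62 and 1.29 against WT. Plk2, a related kinase, rose by 0.43 in Dnmt1 KO and was lower by -0.51 in the double knockout than in Dnmt1 KO. Gadd45a, a growth arrest gene, fell by 0.67 in Dnmt1 KO. Ddit4, an inhibitor of mTORC1 signalling, fell by 0.90 in Dicer/Dnmt1 KO against WT and by 0.78 against Dnmt1 KO. Gdf15, a secreted stress factor, measured 0 to 0.736 RPM in WT and 1.05 to 1.56 in the double knockout, so that it entered the test only through the group where it was high. It is counted among the genes that rose there, and that count is no support for a rise. The counts were 3 higher and 2 lower in Dnmt1 KO, 4 and 4 in the double knockout, and 1 and 2 between the knockouts, with medians of 0.09, -0.10 and -0.15. The share of all tested genes called was 41.0%, 61.9% and 36.3%. The counts of this list were the same without WT 4A and WT 4B.

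Of 9 targets in DNA repair and metabolism, 1 rose and 2 fell in Dnmt1 KO, 3 rose and 5 fell in Dicer/Dnmt1 KO, and 4 rose and 2 fell between the knockouts (medians -0.10, -0.20 and 0.28). Beside these counts, 41.0%, 61.9% and 36.3% of all tested genes were called. Without WT 4A and WT 4B 4 rose and 5 fell in Dicer/Dnmt1 KO, beside 61.2% called, and the other counts were the same. The damage recognition genes Ddb2 and Xpc fell in Dnmt1 KO by 1.00 and 0.48, while Ak1, an adenylate kinase, rose by 0.35. Rrm2b, a subunit of ribonucleotide reductase, rose in Dicer/Dnmt1 KO by 0.92 against WT and 0.90 against Dnmt1 KO, and Ephx1, an epoxide hydrolase, by 1.00 and 0.73. Polk, a translesion polymerase, rose between the knockouts by 0.49. Rps27l, a ribosomal protein paralogue, fell by 0.90 and 0.80, and Ddb2 was lower than WT in the double knockout too, by -0.71.

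Of 8 tested targets in cell death, 2 rose and none fell in Dnmt1 KO (1 rose without WT 4A and WT 4B), 4 rose and 2 fell in Dicer/Dnmt1 KO, and 1 rose and 2 fell between the knockouts (medians 0.16, 0.27 and 0.09). With all libraries, 41.0%, 61.9% and 36.3% of all tested genes were called. Eda2r, a receptor of the tumour necrosis factor family, rose by 0.38 and 0.46 against WT, and Lrdd, the scaffold of the PIDDosome, by 0.40 and 0.50. Ei24, a membrane protein of the endoplasmic reticulum, rose in the double knockout by 1.00 against WT and 0.89 against Dnmt1 KO. Aen, a nuclease, fell by 0.43 and 0.48 in the same comparisons, and Trp53inp1, which promotes p53 activity and autophagy, fell by 0.37 between the knockouts. Fas, a death receptor, was not tested, at 0.326 to 0.983 RPM.

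**Figure D4:**
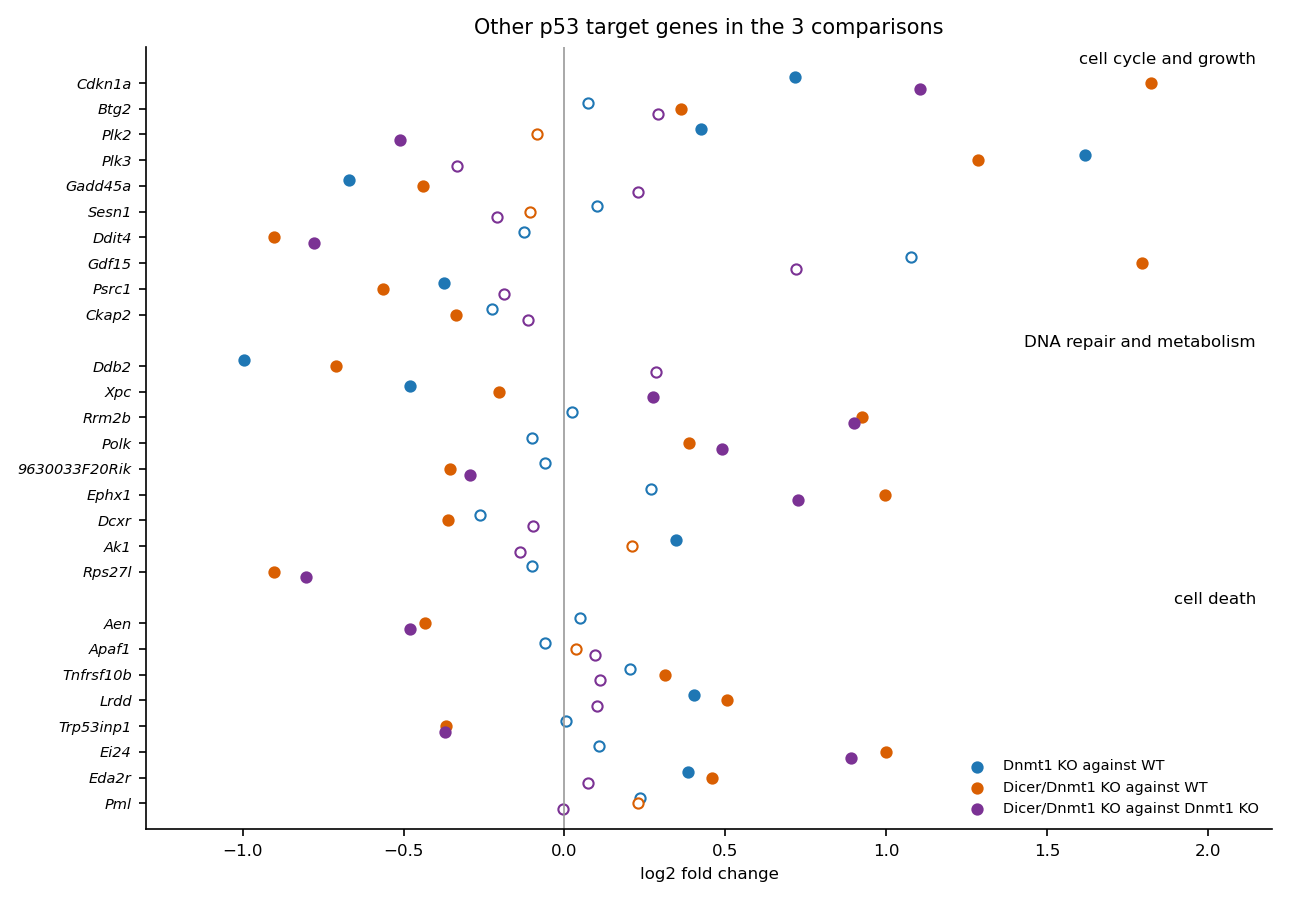
Log2 fold change by limma of 27 tested p53 targets outside the 10 genes, grouped by role, in the 3 comparisons. Filled points passed a BH adjusted p under 0.05 and open points did not. Points lie on both sides of 0 in each group, and Cdkn1a (0.72, 1.82 and 1.11) was higher in each comparison.

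Regulators of p53 were read from a list of 21. In Dnmt1 KO 7 rose and 4 fell, in Dicer/Dnmt1 KO 7 rose and 6 fell, and between the knockouts 1 rose and 4 fell, beside 41.0%, 61.9% and 36.3% of all tested genes called and with medians of -0.03, -0.01 and -0.06 (7 and 5, 7 and 6, and 2 and 4 without WT 4A and WT 4B). Cdkn2a, whose Arf product blocks Mdm2, rose from a mean of 0.76 log2 RPM in WT by 1.41 in Dnmt1 KO (SE 0.20, limma BH adjusted p = 3.34e-05) and by 1.31 in Dicer/Dnmt1 KO, although the values do not separate its transcripts for Arf and the kinase inhibitor. Hipk2, a kinase of p53, rose by 0.86 and 1.51 (SE 0.29). Its WT libraries ran from 3.37 to 13.6 RPM, overlapping Dnmt1 KO (10.03 to 16.1) but not Dicer/Dnmt1 KO (15.3 to 28.0). Crebbp, an acetyltransferase, rose by 1.05 (SE 0.32) in Dicer/Dnmt1 KO, where 46.8 to 65.7 RPM overlapped with 10.3 to 56.6 in WT. Rpl11, a ribosomal protein that can bind Mdm2, fell there by 0.81 against WT and 0.48 against Dnmt1 KO. Ribosomal protein genes as a class held 4.98% to 5.65% of gene reads in Dicer/Dnmt1 KO, beside 6.18% to 10.3% in WT and 5.79% to 7.54% in Dnmt1 KO. Mdm4, the Mdm2-related inhibitor of p53, was the 1 regulator that rose between the knockouts with all libraries in the fit, by 0.72 (SE 0.13, adjusted p = 0.000288). Aurka, a mitotic kinase, fell between the knockouts by 0.53, and Rchy1, a ubiquitin ligase, rose in Dnmt1 KO by 0.44 and was lower by -0.45 in the double knockout. Wrap53, a neighbour of Trp53 on the opposite strand whose antisense transcript is known to act on Trp53 RNA, rose by 0.53 in Dnmt1 KO (adjusted p = 1.44e-05). In the deposited coordinates no other listed gene overlaps Trp53, Wrap53 included. The strand setting of the counting was not given in the sources used here. Reads of any Wrap53 transcript that runs past these coordinates into Trp53 may thus not have been told apart.

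Of the p53 family, Trp73 was tested and measured 0.715 to 1.70 RPM in WT and 1.59 to 2.83 in Dicer/Dnmt1 KO, a rise of 1.07 (SE 0.29, limma BH adjusted p = 0.00361). Its difference in Dnmt1 KO was 0.58 (adjusted p = 0.116), and Trp63 was not tested, at 0 to 0.540 RPM. Of 16 tested genes of the Bcl2 family and the apoptosome outside the 10, 2 rose and 5 fell in Dnmt1 KO, 2 rose and 11 fell in Dicer/Dnmt1 KO, and 1 rose and 6 fell between the knockouts, beside 17.5%, 30.1% and 19.4% of all tested genes called lower. Without WT 4A and WT 4B these were 3 and 5, 2 and 10, and 1 and 6, and the medians with all libraries were -0.07, -0.59 and -0.16. The fallen genes had opposite roles. Bmf (-0.91 in Dnmt1 KO, -0.70 in Dicer/Dnmt1 KO), Bid and Bik (-0.85 and -0.82 in Dicer/Dnmt1 KO) promote death. Bcl2 (-0.76 in Dnmt1 KO, -0.88 in Dicer/Dnmt1 KO) protects cells. Bik measured 1.046 to 2.382 RPM in WT and 0.503 to 1.367 in Dicer/Dnmt1 KO. The WT libraries, where Bik was high, were thus enough for it to pass the filter. Its count among the fallen genes is not taken as support for a fall. Bcl2 was low too, with 1.191 to 3.202 RPM in WT and 0.999 to 1.321 in Dicer/Dnmt1 KO. Bad, which promotes death, rose by 0.61 in Dnmt1 KO. Between the knockouts Bok (-1.14), Cycs (-0.72), the cytochrome c gene, and Bid (-0.55) were lower in the double knockout, and Bcl2l11, which encodes the death activator Bim, rose by 0.61.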

How the data were processed

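RNA was sequenced from 16 ESC libraries (8 WT, 4 Dnmt1 KO, 4 Dicer/Dnmt1 KO). The authors trimmed reads (Trim Galore 0.3.5 per the submitters' processing notes), aligned them to NCBIM37 (TopHat2 2.0.11), discarded alignments with a mapping quality under 20, and quantified genes in SeqMonk. The deposited values are log2 RPM, reads of a gene scaled to library size. The study's own gene test, DESeq2 with an intensity difference test, needs raw counts and was not run. A further 35 columns belong to other samples and were not used. Values returned to the linear scale gave whole reads (within 0.1 read) for at least 99.99% of values, and 0 reads is written as 0.9 read. At this depth 3 reads, the limit that a count of 0 allows, equal 0.0571 to 0.0954 RPM, a limit that covers counting error only.

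Genes above 1 RPM in at least 4 libraries (12892) were fitted with limma 3.58.1 (R 4.3.3), a mean per group and an intensity trend in the variance, with BH adjustment over all tested genes. The code was tested on simulated data. Lengths and coordinates came from GENCODE M1 (coordinates identical for 99.8% of the 26127 listed genes). The 10 genes, the companion lists and the rule for naming genes (all 10, and up to 4 called genes of each list with the largest changes) were chosen with earlier results of these data known. Alternatives covered replicate handling, WT libraries, scaling, length trend, filters, pseudocount, single libraries and, added after seeing the data, limma voom on recovered reads. Neither the meaning of the letters A and B nor separate cultures behind the replicates are given in the labels, so p-values measure the spread between libraries, which may be technical.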

Additional observations from a re-analysis of the deposited data

How the results depend on the processing

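Replicate handling and a minimum change moved the counts of called members. In Dnmt1 KO against WT (7 called) 2 of the 10 genes passed with A and B averaged, with letter A only and with letter B only, 4 with A and B treated as correlated (beside 17.7%, 14.2%, 12.5% and 21.1% of all genes), and 1 with a minimum change of 1.5-fold. In Dicer/Dnmt1 KO against WT (7 called) 5 passed with averaging, 4 with letter A, 3 with letter B, 6 with the correlation (beside 39.8%, 31.0%, 37.3% and 44.6%) and 2 with the minimum change. In Dicer/Dnmt1 KO against Dnmt1 KO (5 called) 2 passed with averaging, 1 with letter A, 1 with letter B, 3 with the correlation (beside 9.5%, 7.38%, 5.17% and 16.4%), 1 with the minimum change and 8 when only the groups compared were fitted (beside 47.2%). Leaving out 1 library gave 5 to 7, 7 to 8 and 4 to 7, beside 31.4% to 43.6%, 55.1% to 64.9% and 28.6% to 40.3% of all genes. No share over all genes was taken for the minimum change. The samples share only a number: deviations of libraries with the same number and letter correlated at -0.256 to 0.219 for Dnmt1 KO and WT, 0.000317 to 0.336 for Dicer/Dnmt1 KO and WT and -0.224 to -0.0282 for the knockouts, so that not every pair exceeded 0.1 in any comparison. The replicate block gave 8, 8 and 7, beside 50.7%, 60.7% and 51.9% of all genes. In a fit of the knockouts only, added after seeing the data, crossed and uncrossed numbers both gave 8, beside 56.2% and 49.6%. The share of higher among called genes in Dnmt1 KO was 57.3%, beside 46.3% after quantile normalization.

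Of 1010 values of single genes under alternatives, 872 kept direction and side of the threshold, 91 lost it, 32 gained it and 15 changed sign, none in Dnmt1 KO against WT. Zmat3 in Dicer/Dnmt1 KO against WT became -0.10 under the block and with WT numbers 1 and 2, and -0.20 with the length trend removed. Bax there became 0.0320 with letter A, 0.12 under the block and with WT numbers 1 and 2, 0.0566 without WT number 4 and 0.32 with the length trend removed, and ran from -0.0550 to 0.0195 when 1 library was left out. Between the knockouts Bbc3 became 0.0151 with letter B and 0.0434 with the length trend removed, and Trp53 ran from -0.0316 to 0.103 when 1 library was left out. The calls of Zmat3 and Bax in Dnmt1 KO held in 11 and 15 of 33 alternatives (the minimum change not counted). The causes were not tested beyond the construction of each alternative. Depth does not limit these genes, since all lie far above the limit of 3 reads.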
